A study of Homo sapiens with 8 samples.

Results

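A375 is a human melanoma cell line, labelled as of skin origin, and its response to interferon-gamma (IFN-gamma) was read from 2 of the 8 RNA sequencing libraries of the series. The members are the A375 library given human recombinant IFN-gamma at 20 ng/ml for 72 hours and the untreated A375 library. The other 6 libraries are pairs of the same kind from the lung cancer lines 549 and H1703 and the kidney line A498, and they serve here as context. All lines grew in RPMI medium with serum and antibiotics, and no allele, transgene or selection is named for any of them. There is 1 library per line and arm and no replicate culture, so a ratio between the A375 libraries has no replicate check and no p-value. The treated A375 library held 8901022 counts and the untreated one 9291154, against 6559933 to 8313169 in the other 6 libraries.

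IFN-gamma is a cytokine of T cells and natural killer cells. Its receptor activates the kinases JAK1 and JAK2, which signal through transcription factors of the STAT family, and these bind a DNA element called GAS at their target genes. Among the first targets is IRF1, a transcription factor that binds a related element, the ISRE, at a second tier of genes for antigen presentation and antiviral defence. In melanoma, MITF is the master transcription factor of the pigment cell lineage, and cells that lose it often carry a dedifferentiated state with receptors such as AXL and NGFR.

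Markers of the pigment cell lineage were present in both A375 libraries. The transcription factor SOX10 had 4269 counts with IFN-gamma and 3952 untreated, and the 10 melanocyte markers summed to 1605 CPM (counts scaled to a common library size) with IFN-gamma and 1802 CPM untreated, against 119 to 237 CPM in the other 6 libraries. Within that sum MIA stood at 455 CPM with IFN-gamma and 155 CPM untreated, PRAME at 248 against 485 and MITF at 46.9 against 379. PRAME alone made up 99.1 to 179 CPM of the sum in the other 6 libraries. The pigment granule genes PMEL and MLANA were near the limit of detection, with 3 and 4 counts in the treated library and 20 and 28 in the untreated one. Among markers of other cell types, the 7 fibroblast genes summed to 28.7 CPM with IFN-gamma and 109 CPM untreated, with COL3A1 and THY1 at 0 in the treated library. The 10 leukocyte markers summed to 27.1 CPM with IFN-gamma and 37.9 CPM untreated, with CD3E, CD3D and MS4A1 at 0 in both libraries. The labels name no cells other than A375 in these libraries. A smaller share of cells with a transcript and less of it per cell cannot be told apart in such bulk samples.

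The level of a gene is given below as CPM scaled by TMM factors, and its response as the log2 ratio of CPM with IFN-gamma over untreated, with a prior count of 2. Genes with at least 50 counts summed over both A375 libraries were described, and 2-fold means a log2 ratio of at least 1 or at most -1. Of 12223 such genes, 1361 (11.1%) were 2-fold higher with IFN-gamma and 1110 (9.08%) were 2-fold lower, while 79.8% lay between. By the same rule 6.88% were higher and 7.67% lower in 549, 10% and 5.92% in A498, and 2.62% and 0.579% in H1703. The quartiles of the ratios lay 0.94 apart in A375, 0.83 in 549, 0.85 in A498 and 0.38 in H1703. List medians of the lines are to be read beside these spreads. In A375 the upper tail was longer than the lower one. A log2 ratio of 4 or more was seen in 63 genes and one of -4 or less in 10, and 30 genes reached 5 while 0 reached -5. Scaling by library size alone shifted all ratios by -0.16 and turned the split round, with 1068 genes 2-fold higher and 1531 lower, so that higher genes were 41.1% of those past 2-fold in place of 55.1%. Upper quartile scaling turned it too, with 1199 higher and 1302 lower (47.9% higher). Counting error limits single ratios: an exact 95% binomial interval around an equal split ran from 0.551 to 1.81 for 50 counts and from 0.75 to 1.33 for 200 counts. These intervals cover counting error only.

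**Figure D1:**
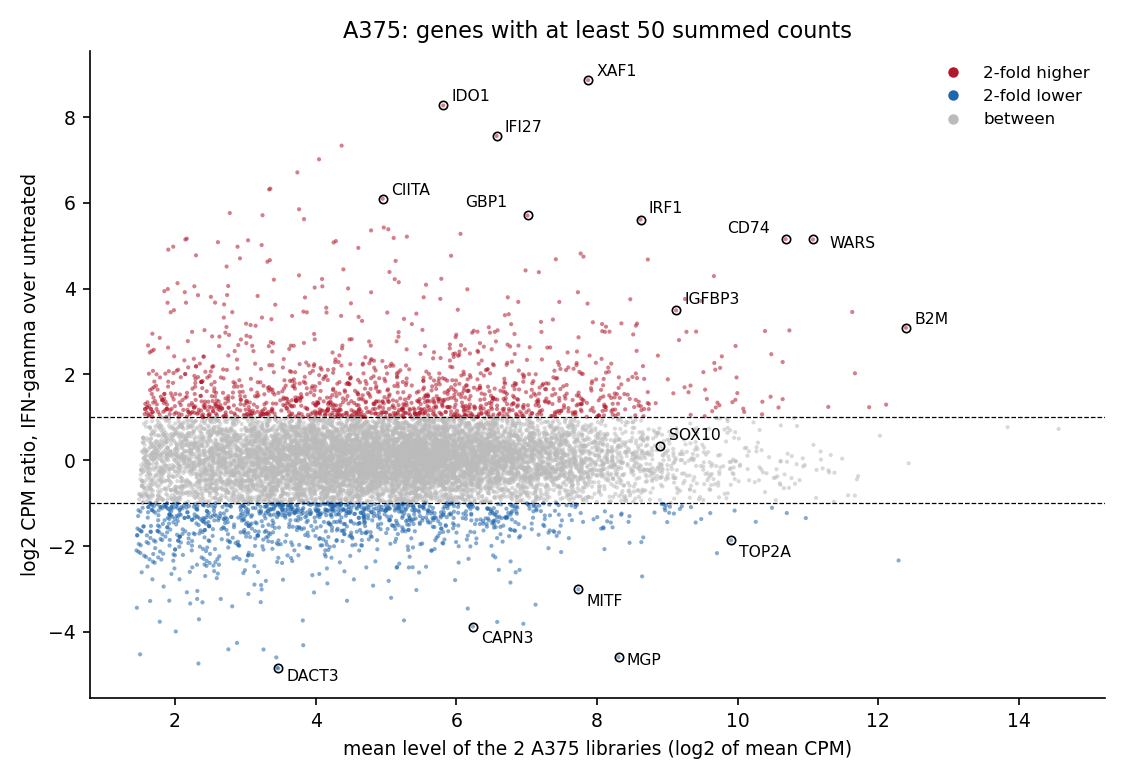
Each point is 1 of the 12223 genes with at least 50 summed counts in A375, with its mean level in both libraries on the x axis (log2 CPM) and its log2 CPM ratio, IFN-gamma over untreated, on the y axis. The dashed lines mark 2-fold, red points are the 1361 higher genes and blue points the 1110 lower genes, and circled genes are named in the text.

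Among genes with at least 200 counts, the highest log2 ratio, 8.86, belonged to XAF1, an interferon-induced factor that binds the apoptosis inhibitor XIAP. XAF1 had 3747 counts with IFN-gamma and 7 untreated, a ratio of 624 (exact 95% interval 303 to 1554). IDO1, which starts tryptophan breakdown, had 900 counts with IFN-gamma against 1 untreated, a ratio of 1049 with an interval from 188 to 41495. IFI27, a mitochondrial interferon-stimulated protein, followed with 1519 counts against 7. All 3 genes were close to silent in untreated A375 cells. Of the 15 highest ratios, 3 were of genes that had 0 counts untreated: ESM1, an endothelial proteoglycan, with 331 treated counts, HLA-DOA, a class II chaperone chain, with 265, and SERPINB2, a plasminogen activator inhibitor, with 214. Against a floor of 3 counts in the untreated library they were at least 129-fold, 103-fold and 83.2-fold higher. The interferon-induced IFI44L had 216 counts with IFN-gamma and 2 untreated, a ratio of 126 with an interval from 34.4 to 1046. The cytokine TNFSF14, a ligand of the herpesvirus entry mediator, had 226 counts against 3, a ratio of 87.8 with an interval from 29.7 to 429. The remaining 7 of the 15 were CIITA, GBP1, IRF1, IL11, the ubiquitin-like modifier UBD, APOL3 and C1S, with log2 ratios between 5.28 and 6.10. Of the 15, ESM1, SERPINB2, TNFSF14, IL11 and UBD were in none of the gene lists used here, and the other genes were in lists of the interferon programme or its outputs. Transcripts of the near-identical SNAR family were counted as a group, and 23 of the 24 with 50 counts were 2-fold higher.

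Most receptor and kinase genes stayed within 2-fold, while the transcription factors below them were far higher. Of 5 receptor chains and kinases, JAK2 alone passed 2-fold, with 135 counts with IFN-gamma and 32 untreated (log2 ratio 2.22), and IFNGR1 and JAK1 had log2 ratios of 0.19 and -0.08. Of 12 STAT and IRF list members, 10 were 2-fold higher and 0 lower, with a median log2 ratio of 2.68 against 0.04 over all genes. IRF1 had 6171 counts with IFN-gamma and 145 untreated, a ratio of 49.6 (exact 95% interval 42.1 to 58.9). IRF7, the regulator of type I interferon genes, had 338 counts against 29, and the partner factor BATF2 417 against 30. Among 9 feedback inhibitors only USP18, which blocks the type I interferon receptor, passed 2-fold, with 140 counts with IFN-gamma and 52 untreated. SOCS1, the main inhibitor of JAK kinases in this pathway, lay under the count minimum at 19 counts against 1, a ratio of 22.2 with an interval from 3.52 to 921.

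GAS and ISRE letters were looked for in the promoter windows of these genes, from RefSeq on build GRCh38.p14 (250 bases before to 50 after each start), with the first listed start where a gene has several. The motifs were TTCNNNGAA for GAS and GAAANNGAAA for the ISRE core, on both strands, and a GAS match can overlap an ISRE match. The windows below are examples of promoters that hold a match before the start, from genes described in the text, and capitals mark the matches, 5′ to 3′ on the gene's strand.
IRF1, chr5:132490874-132490912, minus strand, GAS: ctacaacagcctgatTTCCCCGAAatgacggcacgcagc
CD274, chr9:5450402-5450440, plus strand, GAS: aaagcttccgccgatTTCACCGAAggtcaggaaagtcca
GBP1, chr1:89065311-89065350, minus strand, ISRE: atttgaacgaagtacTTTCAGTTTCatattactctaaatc
TAP1, chr6:32853808-32853853, minus strand, overlapping ISRE matches: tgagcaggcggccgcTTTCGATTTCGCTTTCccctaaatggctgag
B2M, chr15:44711358-44711403, plus strand, overlapping ISRE matches: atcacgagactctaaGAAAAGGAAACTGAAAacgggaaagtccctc
IFI27, chr14:94110613-94110665, plus strand, GAS between and overlapping ISRE matches: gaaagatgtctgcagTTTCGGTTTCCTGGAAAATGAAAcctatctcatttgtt
Of 1018 genes 2-fold higher in A375 that matched a RefSeq promoter, 143 (14%) held either motif, against 60 of 882 (6.8%) of the 2-fold lower genes and 8.45% of the genes between. Over all 27305 RefSeq promoters in the table the share was 11.1%. The ISRE core made most of the difference, in 7.37% of higher, 1.36% of lower and 2.41% of the other genes. Among the 11 of the 15 genes with the highest ratios that matched a promoter, 5 held either motif. These were IFI27, IFI44L, GBP1 and IRF1, with matches before the start, and TNFSF14, with a match after it. XAF1, ESM1, HLA-DOA, SERPINB2, IL11 and UBD held neither in this window. A match is a string of letters and no evidence of binding.

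Class I antigen presentation was higher at nearly every step. Of 21 members, 18 were 2-fold higher and 1 was lower, with a median log2 ratio of 2.22. NLRC5, the transactivator of class I genes, had 380 counts with IFN-gamma and 12 untreated, a ratio of 36.9 (exact 95% interval 20.9 to 72.1). TAP1, a subunit of the peptide transporter, had 3461 counts against 148. The immunoproteasome subunit PSMB9 had 1589 counts against 131, and the light chain B2M 76972 against 10559. The 14 subunits of the constitutive proteasome stayed within 2-fold, with a median log2 ratio of -0.03. CALR, the peptide loading chaperone, was the lower member, with 2900 counts with IFN-gamma and 9253 untreated, and it was named after its values were seen. HLA genes resemble one another, so the counting may have split reads between them.

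Class II presentation was also higher, from a level that was already detectable in untreated A375 cells. Of 15 members, 13 were 2-fold higher and 0 lower, with a median log2 ratio of 3.17. CIITA, the master regulator of class II genes, had 491 counts with IFN-gamma and 6 untreated, a ratio of 95.4 (exact 95% interval 43.5 to 261). CD74, the invariant chain, had 25576 counts against 835, HLA-DRA 5299 against 456 and HLA-DRB1 3372 against 137. The untreated level of HLA-DRA was 48.9 CPM in A375, against 0 CPM in 549, 5.37 CPM in A498 and 0 CPM in H1703. CD74 stood at 89.5 CPM in untreated A375 and at 0, 4.79 and 0 CPM in those lines. The log2 ratio of CD74 was 5.15 in A375, against 6.34 in 549, 7.92 in A498 and 3.15 in H1703. CD74 had 130 counts with IFN-gamma and 0 untreated in 549, and 18 and 0 in H1703. The ratios of 549 and H1703 thus depend on the prior count. A375 lay below A498 and cannot be ranked against 549 and H1703. The edgeR interaction, A375 minus 1 common effect fitted to the counts of the other lines, was -2.95 ± 0.54 (SE, 1 pair in A375 and 3 in the other lines). That common effect is weighted by counts and was 8.07, close to the ratio in A498, the line with the most CD74 counts of the 3. The adjusted p was 0.19 with edgeR and 0.037 with DESeq2.

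Guanylate-binding proteins and antiviral genes formed the broadest group. All 5 guanylate-binding proteins with 50 counts were 2-fold higher, with GBP1 at 2030 counts with IFN-gamma against 43 untreated and GBP4 at 299 against 8. Of 48 antiviral genes, 40 were 2-fold higher and 0 lower, with a median log2 ratio of 2.63. BST2, the tether of budding viruses, had 615 counts against 17. The other 8 antiviral genes lay between. MX2, a capsid-binding restriction factor picked after its values were seen, had 859 counts with IFN-gamma and 1030 untreated, and its untreated level was 110 CPM in A375, against 0, 0.145 and 0 CPM in 549, A498 and H1703.

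Chemokines and checkpoint ligands were 2-fold higher in part. Of 9 chemokines, 4 were 2-fold higher and 0 lower. The CXCR3 ligand CXCL10 had 163 counts with IFN-gamma and 8 untreated, and CXCL11, a ligand of the same receptor, had 87 against 14. CX3CL1, a membrane-bound chemokine, had 907 counts against 137. CXCL9 was at 11 counts against 0, too few to describe by a ratio of useful width. CD274, which encodes PD-L1, had 68 counts with IFN-gamma and 4 untreated, a ratio of 19.8 (exact 95% interval 7.40 to 74.8). PVR, the ligand of TIGIT, had 2160 counts against 670, and CD276, a B7 family member, had 548 against 1213, short of 2-fold. Of 7 ligands of natural killer receptors 1 passed 2-fold, HLA-E, with a log2 ratio of 1.92, and MICA had a log2 ratio of -0.68.

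Complement, cell death and NF-kB lists each had members far above 2-fold. Of 12 complement genes, 7 were 2-fold higher and 1 lower. The proteases that start the classical cascade were among the higher ones, with C1S at 1043 counts with IFN-gamma and 29 untreated (log2 ratio 5.28) and C1R, added after its values were seen, at 1753 against 156. SERPING1, the inhibitor of both proteases, had 110 treated counts and 0 untreated, at least 42.8-fold higher. Of 21 cell death effectors, 10 were 2-fold higher and 0 lower, among them the inflammasome caspase CASP1 at 87 counts against 5 and the apolipoprotein L genes APOL3 and APOL6. Of the 13 cytokines, adhesion molecules and subunits in the NF-kB list, 8 were 2-fold higher and 0 lower. IL32 had 161 counts against 13, and the cytokine LIF 3059 against 993. BIRC3, an inhibitor of apoptosis, stood at 62.2 CPM with IFN-gamma and 8.90 CPM untreated.

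Genes of tryptophan breakdown and of the aryl hydrocarbon receptor lay in both directions. Besides IDO1, the tryptophanyl-tRNA synthetase WARS was among the most strongly counted responders, with 33472 counts with IFN-gamma and 1100 untreated, a ratio of 35.5 (exact 95% interval 33.4 to 37.7). The amino acid transporter SLC7A5 had 2328 counts against 619, and CYP1B1, a target of the aryl hydrocarbon receptor, 129 against 15. Of 13 members, 8 were 2-fold higher and 4 lower. The 4 lower members were all enzymes of tryptophan breakdown. They were AFMID, which acts right after IDO1, with 109 counts with IFN-gamma and 258 untreated, KMO with 178 against 763, CCBL1 with 45 against 143 and QPRT with 23 against 114. KYNU, another enzyme of the pathway, was higher at 123 counts against 43. AFMID, KMO, CCBL1, QPRT and KYNU were named after their values were seen.

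The transcripts of the ATF4 response, which cells switch on when amino acids run short, were higher as a nearly complete set. Of 22 members, 21 were 2-fold higher and 0 lower, with a median log2 ratio of 2.29. SESN2, a leucine sensor that restrains mTORC1, had 6512 counts with IFN-gamma and 294 untreated, a ratio of 25.8 (exact 95% interval 23.0 to 29.1). The stress factor ATF3 had 841 counts against 50, the stress-inducible NUPR1 1076 against 77, and CHAC1, which degrades glutathione, 3188 against 244. DDIT3, the proapoptotic factor CHOP, had 3200 counts against 1009. All of these stood well above their untreated level. In A375 the log2 ratio was above that of each other line in 17 of the 22 genes, as it was in 27.9% of all genes. Over the 18 members with 50 counts in every line, the median was 2.23 in A375, 1.72 in 549, 1.57 in A498 and -0.05 in H1703.

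Chaperones of the endoplasmic reticulum did not follow the ATF4 genes. Of 16 members, 2 were 2-fold higher and 7 lower, with a median log2 ratio of -0.35. SDF2L1, a subunit of a chaperone complex, had 258 counts with IFN-gamma and 1455 untreated, a 4.84-fold lower level (exact 95% interval 4.23 to 5.54). CRELD2 had 158 counts against 781 and the secreted stress factor MANF 1206 against 4167. HERPUD1, part of the degradation machinery, was one of the higher members at 1196 counts against 452.

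Cholesterol synthesis was lower along most of the pathway. Of 23 genes, 15 were 2-fold lower and 0 higher, with a median log2 ratio of -1.46. DHCR7, which makes cholesterol in the last step, had 46 counts with IFN-gamma and 382 untreated, a 7.12-fold lower level (exact 95% interval 5.24 to 9.89). The isomerase EBP had 146 counts against 668 and the demethylation enzyme MSMO1 86 against 371. Of 10 fatty acid synthesis genes 1 was 2-fold lower, the synthase FASN at 1551 counts with IFN-gamma and 4284 untreated. The cholesterol genes with 50 counts in every line had medians of -1.46 in A375, -0.80 in 549, -0.75 in A498 and -0.05 in H1703.

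Cell cycle genes were lower without exception in direction. All 48 members of the S phase and G2/M lists had log2 ratios below 0, and 39 were 2-fold lower. The S phase list had 20 of 24 genes 2-fold lower and a median of -1.39, and the G2/M list had 19 of 24 and a median of -1.18. Thymidine kinase TK1 had 233 counts with IFN-gamma and 1101 untreated, and the replicative helicase subunit MCM3 257 against 1153. The mitotic activator CDC20 had 289 counts against 1352, and topoisomerase TOP2A 3306 against 14066, a 3.65-fold lower level (exact 95% interval 3.51 to 3.79). A375 had the lowest log2 ratio of the 4 lines in 23 of the 24 G2/M genes and 17 of the 24 S phase genes, as it had in 27.1% of all genes. The G2/M medians were -1.18 in A375, -0.43 in 549, -0.36 in A498 and -0.07 in H1703. The S phase medians were -1.39 in A375, -0.99 in 549, -0.50 in A498 and 0.09 in H1703. The inhibitor of cyclin-dependent kinases CDKN1A had 2422 counts with IFN-gamma and 1280 untreated, a log2 ratio of 1.14, and GADD45A, another growth arrest gene of the p53 list, 4122 against 600. Of the 21 p53 targets, 8 were 2-fold higher and 2 lower.

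Control lists and those of respiration, hypoxia and NRF2 had medians within 2-fold. The 14 housekeeping genes had a median log2 ratio of -0.05 with 1 gene 2-fold higher and 1 lower, and 9 of them were below 0. The 27 ribosomal protein genes had a median of -0.22 with 1 lower, and 24 of them were below 0. The 23 respiratory chain subunits had a median of -0.52, and 21 of them were below 0 though 0 passed 2-fold. That median lay under the lower quartile of all genes (-0.44), and it was -0.14 in 549, -0.35 in A498 and -0.09 in H1703. Hypoxia targets had a median of 0.19 with 1 of 18 genes 2-fold higher and 2 lower. The higher one was VEGFA, with 3882 counts with IFN-gamma and 499 untreated. The 16 NRF2 targets had a median of 0.06, which turned to -0.10 with library size alone and -0.02 with upper quartile scaling. Their members went apart, with 4 that were 2-fold higher and 3 lower. TXNRD1, a thioredoxin reductase, had 5175 counts with IFN-gamma and 1029 untreated, while the aldo-keto reductases AKR1C2 and AKR1C3 had 120 against 604 and 54 against 256. The AKR1C genes are near-identical copies whose reads the counting may have shared.

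**Figure D2:**
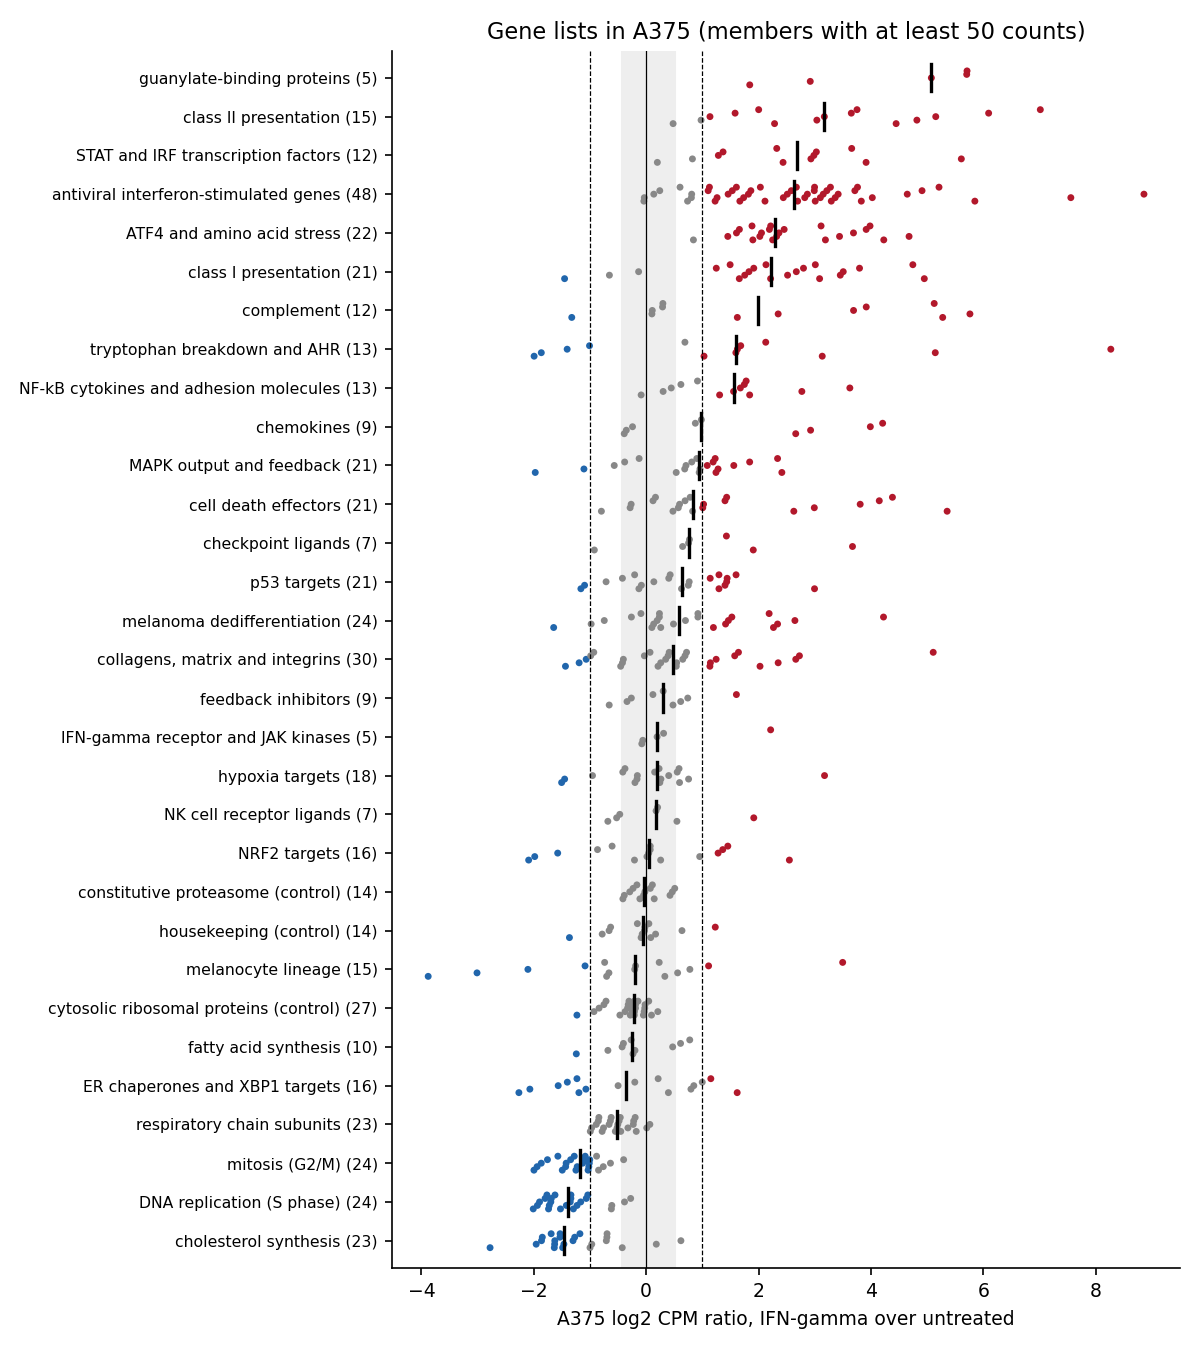
Each row is a gene list with the number of members that had 50 counts in A375, and each point is a member's log2 CPM ratio, IFN-gamma over untreated. Black bars are list medians, the grey band spans the quartiles of all genes and the dashed lines mark 2-fold. Guanylate-binding proteins lie highest with a median of 5.08 and cholesterol synthesis lowest with -1.46.

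Genes of the melanocyte lineage did not move as one. MITF stood at 46.9 CPM with IFN-gamma and 379 CPM untreated, an 8.10-fold lower level (exact 95% interval 7.28 to 9.03). Its target DCT, an enzyme of melanin synthesis, had 150 counts against 760, a 4.35-fold lower level, and CAPN3, a protease of the same programme, 75 against 1320, a 15.1-fold lower level. SOX10, which stands above MITF, had a log2 ratio of 0.33. Of 15 members with 50 counts, 2 were 2-fold higher and 4 lower. The higher ones were OCA2, a melanosome transporter, with 60 counts with IFN-gamma and 4 untreated, a ratio of 17.5 (exact 95% interval 6.49 to 66.3), and the lineage factor PAX3, named after its values were seen, with 171 against 91. The fourth lower member was the calcium-binding S100B, with 371 counts against 922. MITF was lower in 3 of the 4 lines by over a log2 of 1, with log2 ratios of -3.01 in A375, -1.34 in 549 and -1.23 in A498, and it had -0.10 in H1703. The interaction estimate for MITF, A375 minus the common effect in the other lines, was -2.05 ± 0.50 (SE, edgeR), with an unadjusted p of 0.0029 and an adjusted p of 0.28.

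Receptors and factors of the dedifferentiated state were partly higher. Of 24 genes, 9 were 2-fold higher and 1 lower, with a median log2 ratio of 0.59. The same 24 genes had medians of 0.21 in 549, 0.60 in A498 and 0.36 in H1703, so A498 stood level with A375. Over the 11 members with 50 counts in every line, the median was 1.20 in A375, 0.49 in 549, 0.86 in A498 and 0.36 in H1703. The nerve growth factor receptor NGFR had 261 counts with IFN-gamma and 14 untreated, a ratio of 21.7 (exact 95% interval 12.7 to 40.3). The receptor kinase AXL had 2780 counts against 672, a ratio of 4.82, and NT5E, the ectoenzyme CD73 that makes adenosine, 1161 against 214. FOSL1, an AP-1 subunit, had 1718 counts against 394. Its log2 ratio was 2.34 in A375, 2.51 in 549, 1.99 in A498 and 1.24 in H1703. The other 14 genes of the list lay between. TWIST1, an inducer of mesenchymal genes, was the lower member at 442 counts against 1618, and it was named after its values were seen.

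**Figure D3:**
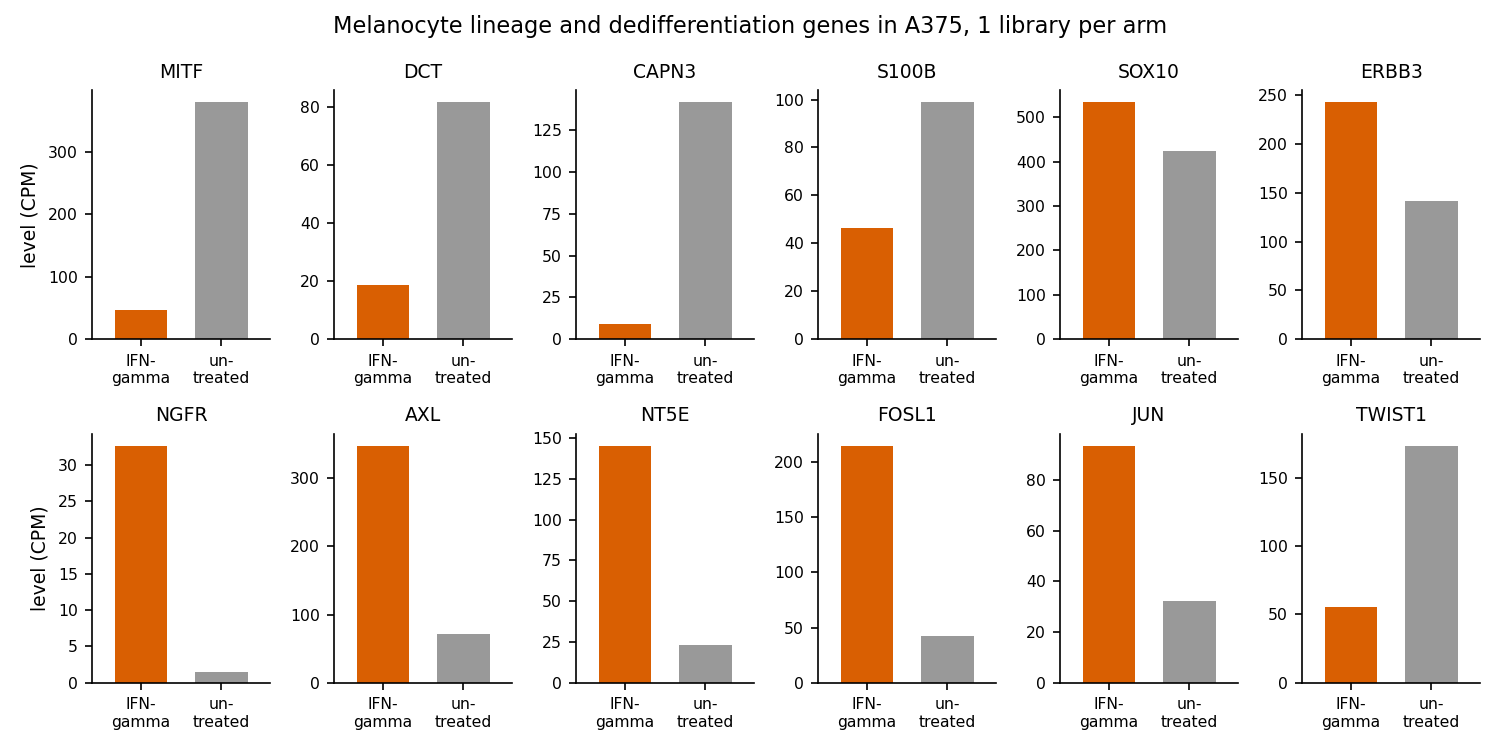
Each panel gives the level of 1 gene in CPM in the treated (left, orange) and untreated (right, grey) A375 library, with a y axis of its own from 0. MITF, DCT, CAPN3, S100B and TWIST1 are lower with IFN-gamma, SOX10 and ERBB3 differ by less than 2-fold, and NGFR, AXL, NT5E, FOSL1 and JUN are higher.

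The output of the MAPK pathway, on which many melanomas depend, was higher for part of its genes. Of 21 members, 9 were 2-fold higher and 2 lower, with a median log2 ratio of 0.94. The phosphatase DUSP6, a feedback inhibitor of ERK, had 9701 counts with IFN-gamma and 4657 untreated, and cyclin D1, CCND1, 6495 against 2567. SPRY1, another feedback inhibitor, lay the other way at 43 counts against 204, and the related SPRY4 had 3323 against 2013. The guidance receptor EPHA4 had 73 counts against 14.

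Matrix genes and secreted factors differed in both directions. Of 30 collagens, matrix genes and integrins, 10 were 2-fold higher and 3 lower, against 11.1% and 9.08% of all genes. The lower share was thus near that of all genes. The collagenase MMP1 had 306 counts with IFN-gamma and 8 untreated, a ratio of 44.6 (exact 95% interval 22.4 to 104), and its inhibitor TIMP1 had 13868 against 2551. The adhesion molecule L1CAM had 148 counts against 24 and the collagen chain COL6A3 1993 against 454. SPARC, a collagen-binding protein named after its values were seen, had 5286 counts against 16680. The interleukin IL11 had 492 counts with IFN-gamma and 11 untreated, and IGFBP3, which binds insulin-like growth factors, 8211 against 847.

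The 15 lowest ratios lay nearer 0 than the 15 highest, with log2 ratios from -4.85 to -3.08. DACT3, an inhibitor of Wnt signalling, led them with 4 counts with IFN-gamma and 202 untreated, a 43.3-fold lower level (exact 95% interval 16.7 to 160). MGP, a matrix protein that blocks calcification, had 200 counts against 5676, a 24.3-fold lower level (interval 21.1 to 28.2). The secreted protein WFDC1 had 4 counts against 200, the phosphodiesterase PDE3A 5 against 197 and the neural adhesion molecule NRCAM 9 against 254. ID3, an inhibitor of basic helix-loop-helix factors, had 94 counts against 1228, and PDK4, which shuts pyruvate out of the citrate cycle, 196 against 2380. The other genes were CAPN3, LRRC17, PCDH7, KCNJ10, SLC7A8, LHFPL3-AS1, NRGN and LUM. LUM, a proteoglycan at 25 counts against 265, is also 1 of the 7 fibroblast markers whose sum was lower. The labels name no cells other than A375, and the source of this difference was not tested. LHFPL3-AS1 is an antisense transcript, and since the use of strand in counting is not given in the sources used here, its reads and those of its partner cannot be told apart.

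The other lines give a reference that shares no library with A375. In 549, A498 and H1703 together, a quasi-likelihood fit in edgeR that holds each line's own level called 182 of 13323 genes higher (1.37%) and 25 lower (0.188%) at an adjusted p of 0.05. Of the 160 higher genes that had 50 counts in A375, 136 (85%) were 2-fold higher in A375 and 0 were 2-fold lower, against 11.1% and 9.08% of all genes. Their median was 2.19 in A375 as a log2 ratio and 2.52 in the other lines as a fitted log2 fold change. The count minimum favours higher genes here. A gene near 0 in untreated A375 met it only with enough treated counts, and one near 0 in both libraries was left out. The 85% and the median therefore do not cover all 182 called genes. Of 13 lower genes with 50 counts, 5 were 2-fold lower in A375 and 0 were 2-fold higher. Seen from the other side, those 136 genes are 9.99% of the 1361 that were 2-fold higher in A375, and the 5 are 0.45% of the 1110 that were lower. Of the 1361, 45.1% had ratios above 0 in all 3 other lines, against 21.6% of all genes, and of the 1110, 38.6% were below 0 in all 3, against 18.5% of all genes.

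**Figure D4:**
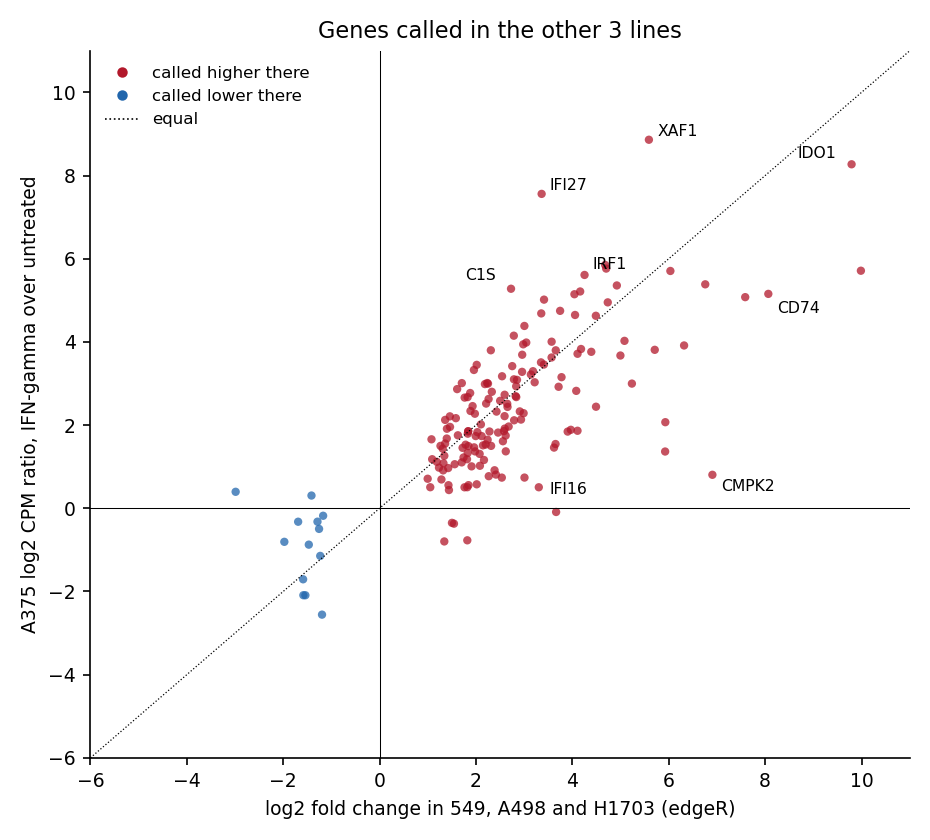
Points are the genes called by edgeR in 549, A498 and H1703 that had 50 counts in A375, 160 called higher (red) and 13 called lower (blue). The x axis is the log2 fold change in those lines and the y axis the A375 log2 CPM ratio, IFN-gamma over untreated. Most red points lie above 1 on the y axis, and IFI16 and CMPK2 lie far below the dotted line of equality.

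Some genes that the other lines raised stood at nearly the same level in both A375 libraries, and the ones given here were chosen after their values were seen. IFI16, a nuclear DNA sensor, had 9731 counts with IFN-gamma and 7993 untreated, a log2 ratio of 0.51, against 3.96 in 549, 2.84 in A498 and 2.54 in H1703. Its untreated level was 857 CPM in A375, against 0.562 CPM in 549, 183 CPM in A498 and 0 CPM in H1703. MT2A, a metallothionein, had 23430 counts with IFN-gamma and 35310 untreated, a log2 ratio of -0.37, against 2.14, 1.47 and 1.07. CMPK2, a mitochondrial nucleotide kinase, differed in another way, with 39 counts with IFN-gamma and 25 untreated in A375 and treated levels of 4.87 CPM in A375, 3.49 CPM in 549, 151 CPM in A498 and 47.1 CPM in H1703.

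Whether A375 differed from the other lines was tested gene by gene as an interaction of A375 with IFN-gamma over all 8 libraries. A375 is assumed there to vary like the others, and the labels name no separate cultures. edgeR called 0 of 13457 genes at an adjusted p of 0.05, which is 0% of those tested. At an unadjusted p under 0.05 there were 1153, of which 605 responded higher in A375 and 548 lower, and limma-voom called 0 while DESeq2 called 61 (41 higher, 20 lower). A count of 0 does not show an equal response. The smallest adjusted p was 0.057, shared by CAPN3 and CXCL11. The log2 difference, A375 minus the count-weighted common effect in the other lines, was -4.82 ± 0.53 (SE) for CAPN3, whose log2 ratios were -3.88 in A375, 0.31 in 549, 0.93 in A498 and 0.89 in H1703. Counts of CAPN3 in the other lines were low, with 7 with IFN-gamma and 6 untreated in 549, 36 and 16 in A498 and 23 and 10 in H1703. The same difference was -6.82 ± 0.72 (SE) for CXCL11, whose log2 ratios were 2.66 in A375, 1.79 in 549, 9.09 in A498 and 4.86 in H1703. CXCL11 had 4 counts with IFN-gamma and 0 untreated in 549, and 64 and 0 in H1703. The ratios of 549 and H1703 thus depend on the prior count, and A375 cannot be ranked against them. The treated level of CXCL11 was 10.9 CPM in A375, 0.634 CPM in 549, 378 CPM in A498 and 7.24 CPM in H1703, and most of its counts in the other lines were those of A498. DESeq2 called CAPN3 (adjusted p 8.1e-07) and did not call CXCL11.

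Among genes with at least 200 counts, the 5 smallest p-values for a higher response in A375 belonged to IGFBP3, the semaphorin and VEGF receptor NRP1, the receptor kinase inhibitor ERRFI1, the acyltransferase AGPAT9 and the calcium-binding S100A2. Their log2 differences lay between 2.56 and 3.38, each with an edgeR adjusted p of 0.18. DESeq2 called all 5, with adjusted p between 8.1e-07 for IGFBP3 and 0.0031 for S100A2. IGFBP3 had a log2 ratio of 3.49 in A375, against -0.41 in 549, 0.31 in A498 and 0.41 in H1703. NRP1 had 1572 counts with IFN-gamma and 171 untreated in A375, a log2 ratio of 3.40, against 0.55, 0.71 and 0.23 in the other lines. For a lower response the 5 were CAPN3, NRCAM, PDK4, ID3 and NAV2, with differences from -4.82 to -2.63. NAV2, a cytoskeletal adaptor, was the one that the other lines raised, with log2 ratios of 1.52, 1.87 and 2.23 against -0.77 in A375. The edgeR adjusted p of these 5 lay between 0.057 and 0.18, and DESeq2 called all 5, with adjusted p between 8.1e-07 for CAPN3 and 0.0028 for NAV2.

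**Figure D5:**
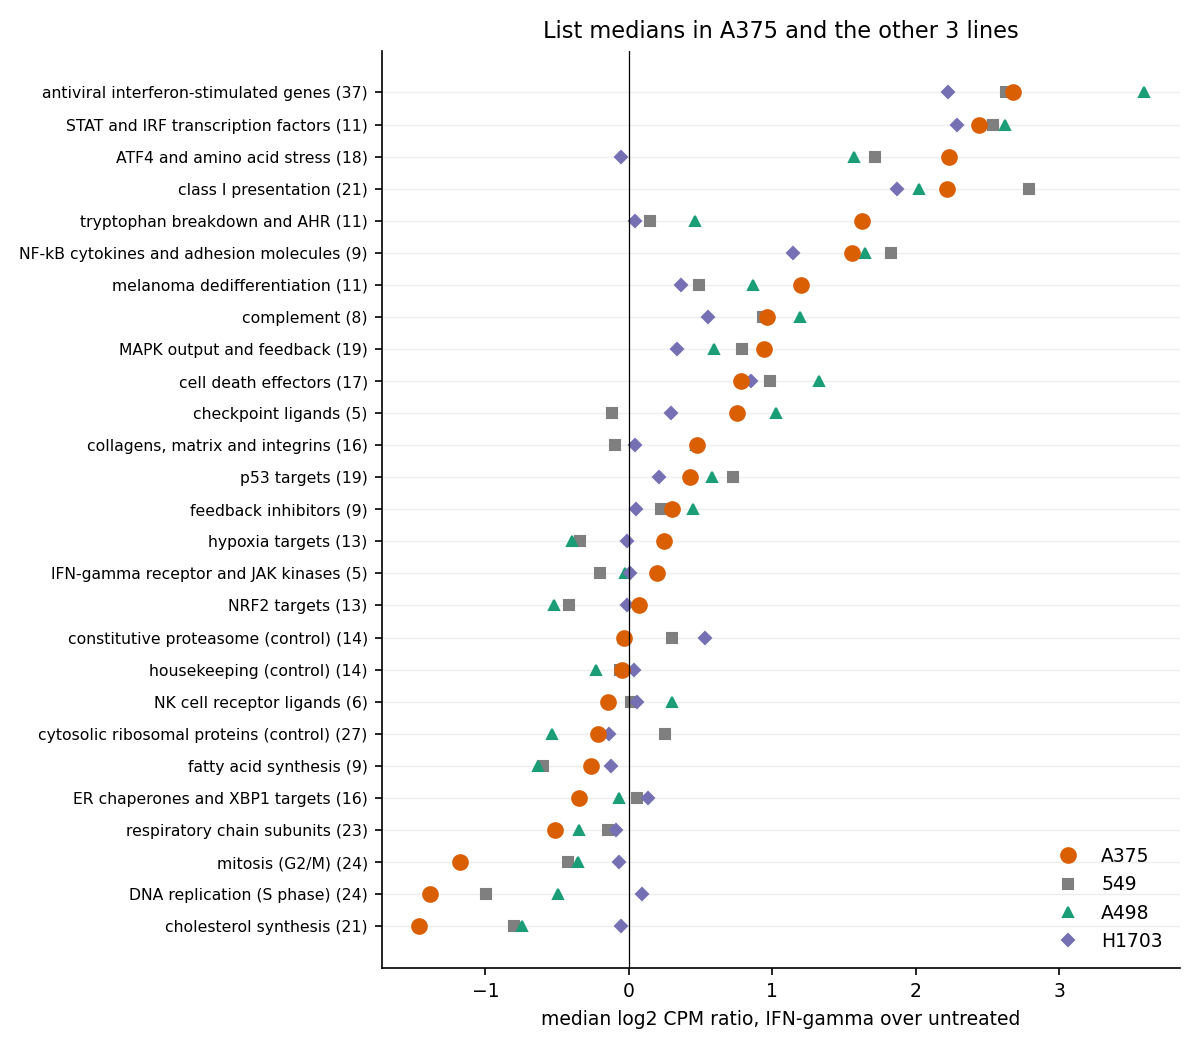
Rows are gene lists with at least 5 members that had 50 counts in every line (numbers in brackets), and symbols are the median log2 CPM ratio, IFN-gamma over untreated, in A375 (orange circles) and the other 3 lines. A375 is the lowest of the 4 for cholesterol synthesis (-1.46) and both cell cycle lists (-1.39 and -1.18), and the highest for ATF4 genes (2.23), while for STAT and IRF genes the 4 medians lie between 2.29 and 2.62.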

How the data were processed

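Raw counts per gene for all 8 libraries were taken from the table the authors deposited, per the file headers. The same table holds normalized log2 values made by the authors, per the file headers, and these were used to check the counts and as an alternative. Bowtie2, edgeR and hg19 are named per the submitters' processing notes. The sources used here give no tool version, gene annotation or use of strand. The labels' protocols name both a SMARTer poly(A) and a QuantSeq 3' kit, so levels were not compared between genes. The table had 25737 rows and 24462 symbols.

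Counts were scaled by TMM in edgeR 4.0.16 (R 4.3.3), with a prior count of 2 and a minimum of 50 summed counts. Ratio intervals are exact 95% binomial intervals. The 3 other lines, and A375 against them, were tested with edgeR's quasi-likelihood F-test on genes kept by filterByExpr (minimum count 10), with a line term, 2 residual degrees of freedom and Benjamini-Hochberg adjustment at 0.05. Cell line is the pairing, since both arms come from 1 line. The p-values measure spread between lines, as the labels name no separate cultures. Alternatives included DESeq2 1.42.0 and limma 3.58.1.

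Members and gene lists were chosen with earlier results of these data known. Named genes were the 15 highest and 15 lowest ratios among genes with 200 counts, leaving out small RNA and LOC symbols, up to 4 per list with the largest absolute ratio, the 5 smallest interaction p-values in each direction, and a fixed set. Genes named outside this rule, other than cell type markers, were chosen after their values were seen: AFMID, AIM2, CALR, C1R, CCBL1, CMPK2, ERBB3, ID1, IFI16, INHBA, JUN, KMO, KYNU, LOC100506990, MT2A, MX2, NAMPT, PAX3, QPRT, RCAN1, S100B, SPARC and TWIST1. Some genes are not reported here.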

Additional observations from a re-analysis of the deposited data

Results flagged for a closer look

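Over the 4 lines, 138 sets of 4 values were screened for a line that stands apart, and A375 did so in 5. Chance picks out about 1 in 20 such sets, and 5 of 138 is not above that share. The untreated A375 library was the deepest of its arm, with 9291154 counts against 6991610 in 549, 6750962 in A498 and 7101076 in H1703. IRF1 had a log2 ratio of 5.61 in the melanoma line, against 4.41, 4.22 and 4.18 in those lines. TAP1 had 4.75 in A375, against 3.75, 3.73 and 3.78. In both genes A375 lay above a close cluster of the other lines, which is the pattern that the screen picks out. LIF had 1.84 in A375, against 0.55, 0.67 and 0.72, and ERRFI1 had 2.99, against 0.27, 0.33 and 0.51. ERRFI1 had already been named for its small interaction p, so its place here is no separate support. The unnamed transcript LOC100506990 had a log2 ratio of 1.82 in A375, against -1.08 in 549, -1.04 in A498 and -1.02 in H1703, and this opposite direction was not tested.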

How the results depend on the processing

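Every named gene kept the direction of its A375 ratio under the alternatives run, and of the list medians that of NRF2 targets turned. Higher genes outnumbered lower ones except when scaled by library size (1068 against 1531) or upper quartile (1199 against 1302). The A375 count of 2-fold higher genes was 2235 with no count minimum, and that of lower genes was 2165 with none and 701 at a minimum of 200. Genes called between A375 and the other lines numbered 2 under upper quartile scaling, 2 when scaled by library size, 91 with no filter, 7 with a filter by the interaction design and 61 with DESeq2. Leaving out 1 other line gave 0 to 4, with 4 without 549 and 1 without H1703. Genes called higher in the other lines numbered 487 with no filter and 333 with DESeq2, and lower 211, 105 and, with limma-voom, 53. Without the line as block these counts were 0 and 0. Leaving out 1 line gave 156 to 472 higher, with 472 without H1703, and 13 to 228 lower, with 13 without 549 and 228 without H1703. The cause of these shifts was not tested. Of single genes' values, 1033 stayed within the comparison limits and 115 moved, and of list medians 204 and 13. With 1 library per arm, depth limits single ratios and gives no spread between cultures.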

Other observations

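Further genes with a large A375 ratio, chosen after their values were seen, had an interaction that DESeq2 called and edgeR did not. RCAN1, an inhibitor of calcineurin, had 12339 counts with IFN-gamma and 732 untreated, a log2 ratio of 4.29 in A375, against 1.14 in 549, 1.90 in A498 and 0.30 in H1703. The adjusted p for its A375 difference was 0.0012 with DESeq2 and 0.20 with edgeR. INHBA, which encodes a subunit of activin, had 24307 counts against 3476 in A375, and NAMPT, an enzyme of NAD salvage, had 9677 against 1410. ID1, a relative of ID3 and an inhibitor of basic helix-loop-helix factors, lay the other way with 257 counts against 1845. The DNA sensor AIM2, which was not tested in that fit, had 8795 counts with IFN-gamma and 1286 untreated, a log2 ratio of 2.99.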
